A study of Mus musculus with 2 samples.

Results

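Regulatory T cells are a lineage of CD4 T cells that restrains immune responses, and they are set apart by the transcription factor Foxp3 together with a group of surface receptors and nuclear proteins. In mouse spleen they make up a minority of CD4 T cells. The 10 genes described here were listed by name as Foxp3 and surface or nuclear genes of these cells, and each was read from the transcript cluster, the set of probes summarised into 1 value, that carries a single gene symbol and the highest mean. All 10 were on the arrays with 1 such cluster each, among 19938 genes with a single symbol. The members were selected on their names, with the knockout minus heterozygote differences of these same arrays in view, so every such difference is a description and none was tested.

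The study compared CD4 T cells without Taf7, a component of TFIID, which binds core promoters ahead of RNA polymerase II, with CD4 T cells that keep 1 functional copy. The heterozygote (TAF7 f/- without Cre) and the knockout (TAF7 f/- with the 8EIII-cre transgene) both carried a floxed and a null allele on a mixed C57/BL6 and 129 background, and only the knockout carried Cre, so that loss of Taf7 and presence of Cre cannot be told apart. The cells came from spleen, were sorted for high expression of TCR beta and of CD4, and were enriched for naive cells by low surface CD44; the age of the mice, the number of animals behind each sample and the cells in which the transgene is active are not given in the labels. Each genotype had 1 array, so the differences below have no replicate check and their precision is limited by that number.

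Taf7 itself had a log2 signal of 8.34 (heterozygote) and 7.79 (knockout), but the labels do not say whether its probes lie inside the deletion, so this value does not check the genotype. The defining markers of CD4 T cells were high on both arrays, with Cd3e, a chain of the T cell receptor complex, at 13.49 and 13.50 and Cd4 at 12.99 and 12.77 (the heterozygote is given first wherever a pair of log2 signals stands together). Of 9 measured B cell markers 1 exceeded a filter on low values, a mean log2 signal of 7.71 that is the 50th percentile of all rows, and of 14 myeloid and dendritic cell markers none did. The deposited values had medians of 7.68 and 7.75. A filter on the mean left 10457 genes, among them 9 of the 10 regulatory T cell genes.

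Foxp3 and Il2ra, defining genes of regulatory T cells, lay above the filter value on both arrays. Itgae lay below it on both, and Nrp1 on the knockout array. In bulk samples such as these, fewer cells of a type and less RNA per cell cannot be told apart.

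Of the 10 genes, 7 were lower in the knockout by at least 1.5-fold, 4 of them (Nrp1, Ctla4, Foxp3 and Izumo1r) by at least 2-fold, and 3 differed by less than 1.5-fold. Over all 19938 genes, 2.02% were lower by 1.5-fold and 0.246% by 2-fold, and over the genes above the filter these shares were 3.17% and 0.325%. Since the list was made with this contrast in view, nothing is read from the gap between the member count and these shares. The differences were far from uniform, running from 3.19-fold lower for Nrp1 to 1.02-fold higher for Itgae (below 0 with the loess trend removed or after quantile normalization), a range of 1.70 on the log2 scale. The median difference of the members was -0.96, beside 0.06 over all genes and -0.05 over genes above the filter.

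**Figure D1:**
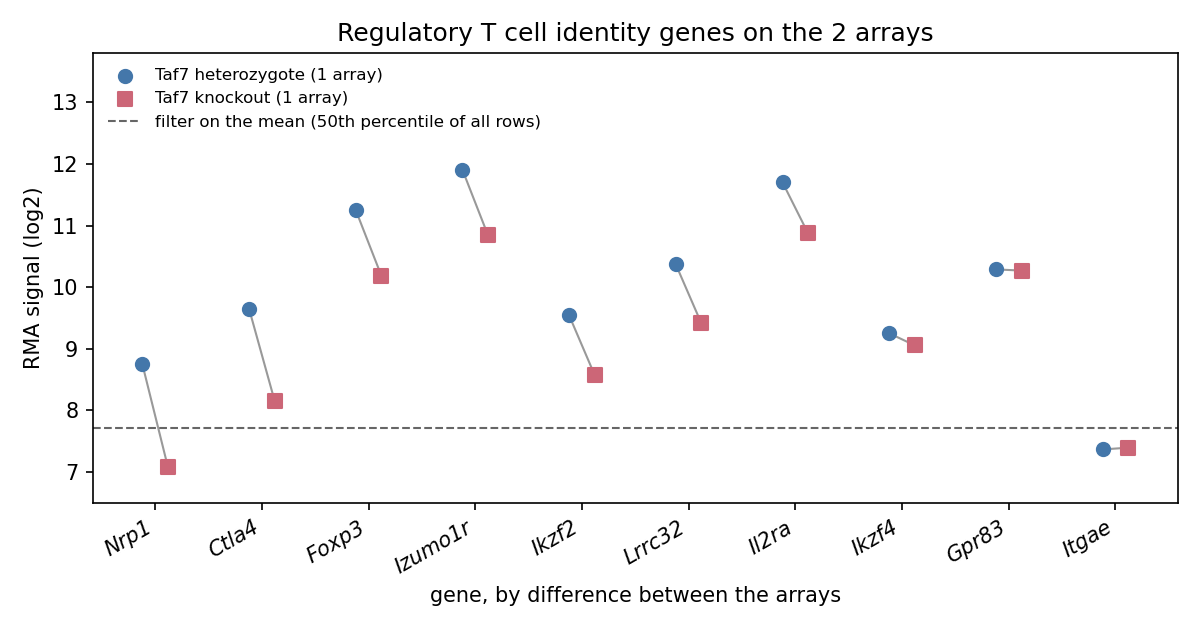
Log2 RMA signal (vertical axis) of each of the 10 genes on the heterozygous array (circles) and the knockout array (squares), 1 array per genotype, ordered by the difference; the dashed line is the filter value of 7.71. The 7 genes from Nrp1 to Il2ra drop by 0.83 or more, while Ikzf4, Gpr83 and Itgae are nearly level; heights of different genes come from different probes and are not comparable.

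Foxp3, the lineage-defining forkhead factor, had a log2 signal of 11.25 (heterozygote) and 10.19 (knockout). The difference of -1.06, or 2.09-fold lower, left 47.8% of the heterozygous signal on the linear scale. Among the genes above the filter 26 had a lower difference than Foxp3, and Nrp1 and Ctla4 were among those 26. The 250 bases before the start site are shown for 3 members, all on the plus strand. They were taken by annotation: their start site in the RefSeq promoter table (GRCm38.p6) is the first annotated base of the gene. Foxp3 lies at chrX:7579426-7579675, Ctla4 at chr1:60908775-60909024 and Il2ra at chr2:11642542-11642791. Capitals mark matches to any of 8 searched motifs.

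Foxp3: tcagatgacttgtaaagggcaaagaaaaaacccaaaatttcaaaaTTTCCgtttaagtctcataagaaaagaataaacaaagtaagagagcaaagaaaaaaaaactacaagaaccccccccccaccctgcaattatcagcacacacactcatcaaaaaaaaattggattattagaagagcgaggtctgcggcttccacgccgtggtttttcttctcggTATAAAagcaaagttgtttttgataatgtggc
Ctla4: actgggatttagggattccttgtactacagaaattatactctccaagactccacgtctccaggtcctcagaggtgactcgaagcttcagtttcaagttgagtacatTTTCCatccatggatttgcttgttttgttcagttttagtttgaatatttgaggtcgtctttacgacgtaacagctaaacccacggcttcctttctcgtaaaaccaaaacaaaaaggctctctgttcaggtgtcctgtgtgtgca
Il2ra: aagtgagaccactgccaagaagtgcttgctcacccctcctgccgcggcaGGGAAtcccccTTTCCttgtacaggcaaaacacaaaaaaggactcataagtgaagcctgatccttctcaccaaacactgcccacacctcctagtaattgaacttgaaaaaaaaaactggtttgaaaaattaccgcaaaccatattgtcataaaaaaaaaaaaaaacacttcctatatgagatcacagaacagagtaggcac

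The motifs were searched on both strands of each window. They were the TATA box (TATAAA), a forkhead site (TGTTTAC), the Ikaros core (GGGAA), the NFAT core (GGAAA), Runx (TGTGGT), AP-1 (TGANTCA), STAT (TTCNNNGAA) and the GC box (GGGCGG); the Ikaros and NFAT cores overlap in part. The Foxp3 window held a TATA box whose first base lay 32 bases before the start, a motif found in 12.4% of all 32851 windows of the same length. Every one of these 3 windows held an NFAT core, as did 55.6% of all windows, at 205 bases before the start in Foxp3, 144 in Ctla4 and 190 in Il2ra. The Il2ra window also held an Ikaros core, found in 56.2% of windows. Nrp1, Gpr83, Izumo1r and a later start of Foxp3 had windows whose start site is not the first annotated base of the gene. Among these the Nrp1 window held 3 Ikaros cores, an NFAT core and a GC box (32.7% of windows), the Gpr83 window 1 Ikaros core, the Izumo1r window an NFAT core and a Runx match (14.0%), and the later Foxp3 window an NFAT core and a STAT match (7.02%). None of the 7 windows held the forkhead letters (3.17% of windows) or the AP-1 letters (6.75%). For Ikzf2, Ikzf4, Lrrc32 and Itgae no window was used. These matches describe letters only.

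The Ikaros family members of the list differed in the size of their drop. Ikzf2, which encodes the zinc finger factor Helios, had a log2 signal of 9.54 (heterozygote) and 8.57 (knockout), a difference of -0.97 that left 51.0% of the signal. Ikzf4, which encodes Eos, a partner of Foxp3 in gene repression, was at 9.25 and 9.05, a difference of -0.20 that left 87.3%. The drop of Ikzf2 exceeded that of Ikzf4 by 0.77 on the log2 scale, a gap that has no error with single arrays. The related genes Ikzf1, Ikzf3 and Ikzf5 differed by -0.08, -0.23 and -0.05. With the loess trend removed or after quantile normalization Ikzf5 alone of these 3 was higher, while with its clusters averaged it was at -0.40. None of the 3 differed by 1.5-fold, where 3.17% of genes above the filter were lower by that much and 0.449% higher.

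The receptors with the steepest drops were Nrp1 and Ctla4. Nrp1, the semaphorin and growth factor coreceptor neuropilin-1 found on thymus-derived regulatory T cells, was at 8.75 (heterozygote) and 7.08 (knockout), a difference of -1.67. Only 2 genes above the filter had a lower difference. The knockout value of Nrp1 lay below the filter, so Nrp1 passed the filter through the heterozygous array alone. Its partners differed less. Sema4a, a semaphorin ligand of Nrp1, was at -0.21, Plxna1, a plexin coreceptor, at -0.20, and the paralog Nrp2 was below the filter on both arrays at 7.22 and 7.24.

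Ctla4, an inhibitory receptor that competes with Cd28 for the ligands Cd80 and Cd86, was at 9.65 (heterozygote) and 8.16 (knockout). The difference of -1.50, or 2.82-fold lower, left 35.5% of the signal. The filter left 6 Ctla4 partners, of which 4 had negative differences, where 59.1% of all genes past it did, and 2 were higher. Past 1.5-fold lay 2 of the 4, where 3.17% of all genes past the filter were lower by that much. The lowest partner was Trat1, an adaptor linked to Ctla4 transport to the surface, at -0.73. Icos, a costimulatory receptor of the same family, was at -0.66, and Cd28 itself was at -0.42. After loess or quantile scaling Icos was no longer past 1.5-fold. Lrba, which protects Ctla4 from degradation, was at -0.18, Ap2m1, an adaptor of Ctla4 endocytosis, at 0.02 and Def6 at 0.20. The ligand gene Cd86 was below the filter by its mean, at 7.58 and 6.72.

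Il2ra, the alpha chain of the high-affinity interleukin-2 receptor (CD25), was at 11.70 (heterozygote) and 10.87 (knockout). The difference of -0.83 left 56.3% of the signal and was the smallest among the 7 genes past 1.5-fold. The signalling parts of the same receptor differed less, with Il2rb, the beta chain, at -0.31, the kinase Jak1 at 0.03, Stat5a at 0.10 and Stat5b at -0.08. Il2rg and Jak3 had no cluster with a single symbol. Among genes that answer to this receptor, Socs2, a feedback inhibitor, was at -0.88 (-0.29 with its clusters averaged) and Cish, another of that family, at -0.13. The cytokine gene Il2 was below the filter on both arrays, at 6.34 and 6.31.

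Lrrc32, which encodes GARP, the docking receptor for latent transforming growth factor beta, was at 10.37 (heterozygote) and 9.41 (knockout). The difference was -0.96 and left 51.5% of the signal. The cargo gene Tgfb1 was higher by 0.17, the related docking gene Nrros was higher by 0.26, and Furin, the protease that processes the cytokine, was at -0.30. Itgb8, an integrin chain that releases the active cytokine, was below the filter at 7.15 and 6.68. Of 7 genes of this group above the filter, none differed by 1.5-fold. Over all genes above the filter only 3.17% were lower by that much and 0.449% higher, so nothing is read from this count.

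Itgae, the alpha chain of CD103, an integrin that holds lymphocytes to epithelium by E-cadherin, was at 7.37 (heterozygote) and 7.40 (knockout). Both values lay below the filter, so a difference may not be visible at this signal. Its difference of 0.03 became -0.14 with the loess trend removed, so it has no settled direction. Itgb7, the beta chain that pairs with it, was at 12.03 and 12.01.

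Izumo1r, the folate receptor 4 gene, and Gpr83, a G protein-coupled receptor gene, are direct neighbours on chromosome 9 in the RefSeq gene order, with 0 annotated genes between them. Izumo1r was at 11.90 (heterozygote) and 10.84 (knockout), a difference of -1.06 that left 47.8% of the signal. Gpr83 was at 10.29 and 10.27, a difference of -0.02 that turned to a value of up to 0.07 under the other scalings. The neighbours thus differed from each other by 1.04 on the log2 scale, again without an error. The relatives of Izumo1r, Folr1 and Folr2, and its sperm ligand gene Izumo1 were all below the filter.

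**Figure D2:**
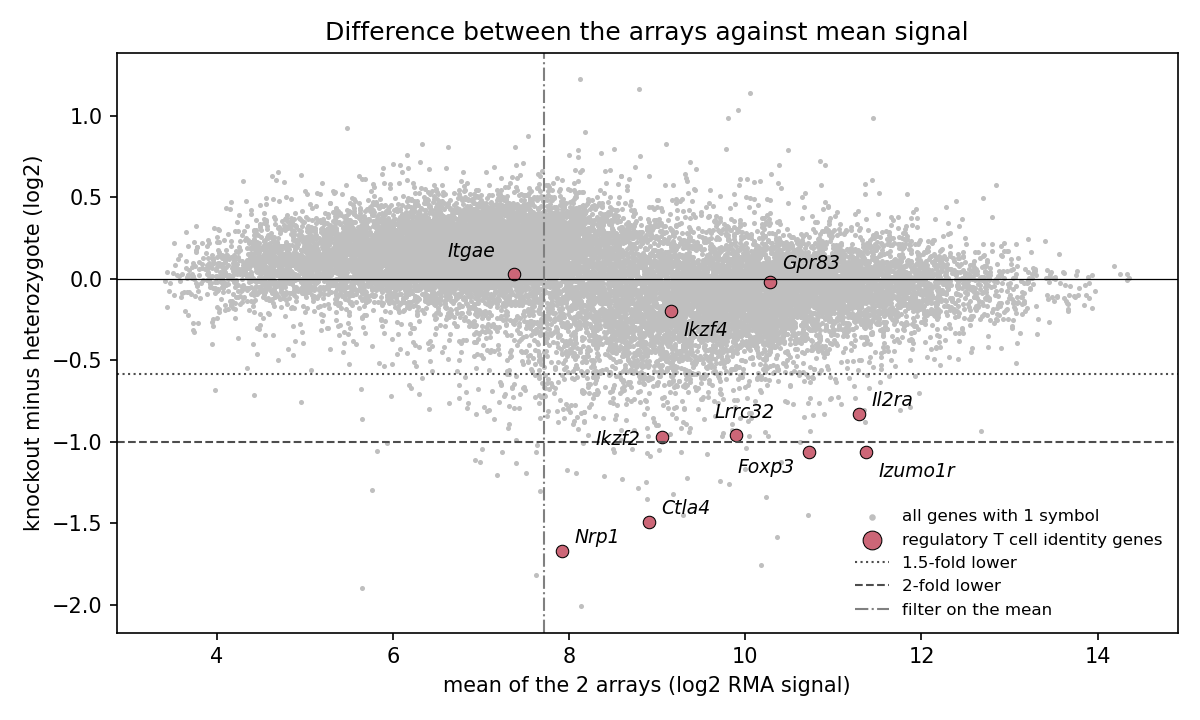
Knockout minus heterozygote difference in log2 signal (vertical axis) against the mean log2 signal of both arrays (horizontal axis) for 19938 genes (grey points), with the 10 regulatory T cell genes in red. Dotted and dashed horizontal lines mark 1.5-fold and 2-fold lower, and the vertical line the filter; of the 10, Nrp1 and Ctla4 lie lowest at -1.67 and -1.50, and Ikzf4, Gpr83 and Itgae lie within the grey cloud.

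The next comparison set the size of each drop against what a single change in cell share would give. If the whole signal of a gene came from cells whose share was multiplied by some factor, the knockout would keep the same percentage of heterozygous signal for every such gene. Taking the 47.8% kept by Foxp3 as that factor, 4 genes came within 0.25 on the log2 scale of the value it gives. These were Izumo1r, higher by 0.0009, Ikzf2, higher by 0.09, Lrrc32, higher by 0.11, and Il2ra, higher by 0.24. The tolerance of 0.25 was chosen after the values were seen, and Il2ra lies at its edge: with the 25th percentile of each array subtracted it was higher by 0.2528, which leaves 3 genes within the tolerance.

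Nrp1 and Ctla4 were lower than the Foxp3 factor gives, with a measured minus computed log2 value of -0.61 and -0.43. For Ctla4 the factor gives a knockout log2 signal of 8.59, against the 8.16 measured, and for Nrp1 it gives 7.69, against 7.08. To reach the measured drops, 124% of the heterozygous Ctla4 signal and 131% of the Nrp1 signal would have to come from the cells concerned. These percentages come from single arrays with no error, and the knockout value of Nrp1 lay below the filter. The part of a change in cell share in these drops was not tested.

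Ikzf4, Gpr83 and Itgae were higher than the same factor gives, by 0.87, 1.05 and 1.09. A part of their signal from other cells would lessen the drop, and the arithmetic then asks for 24.4% of the heterozygous Ikzf4 signal and 2.54% of the Gpr83 signal to come from the cells concerned. For Itgae, the part came out at -3.93%, since its difference was above 0. By the same arithmetic Il2ra would draw 83.8%, Lrrc32 93.0% and Ikzf2 93.9% of its signal from them. No measurement of these parts was made in this study.

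Taking the factor from Nrp1 instead, which kept 31.4%, the lowest of the 10, no part can exceed 100% by construction. The part would then be 94.1% for Ctla4, 76.1% for Foxp3, 76.0% for Izumo1r, 71.4% for Ikzf2, 70.7% for Lrrc32 and 63.7% for Il2ra. It would be 18.6% for Ikzf4 and 1.93% for Gpr83, and for Itgae it came out at -2.99%. This factor rests on the low knockout signal of Nrp1, which passed the filter only through the heterozygous array.

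Array signal also contains a level that is not the transcript, and the arithmetic was repeated with a level subtracted from both arrays. With the 5th percentile of each array subtracted, Foxp3 kept 47.3% and Nrp1 27.4%. With the 25th percentile, log2 levels of 6.42 and 6.51, Foxp3 kept 45.7%, Izumo1r 46.5%, Lrrc32 47.7%, Ikzf2 43.8%, Il2ra 55.0%, Ctla4 27.0% and Nrp1 12.8%. The gap between Nrp1 and Foxp3 widened as more was subtracted. The arithmetic sets this direction, because Nrp1 has the weaker signal, so nothing is read from it. Il2ra kept 56.3% with nothing subtracted and 56.0% with the 5th percentile subtracted. Ikzf4 kept 84.2% and Gpr83 98.1% at the 25th percentile. The true level was not measured.

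**Figure D3:**
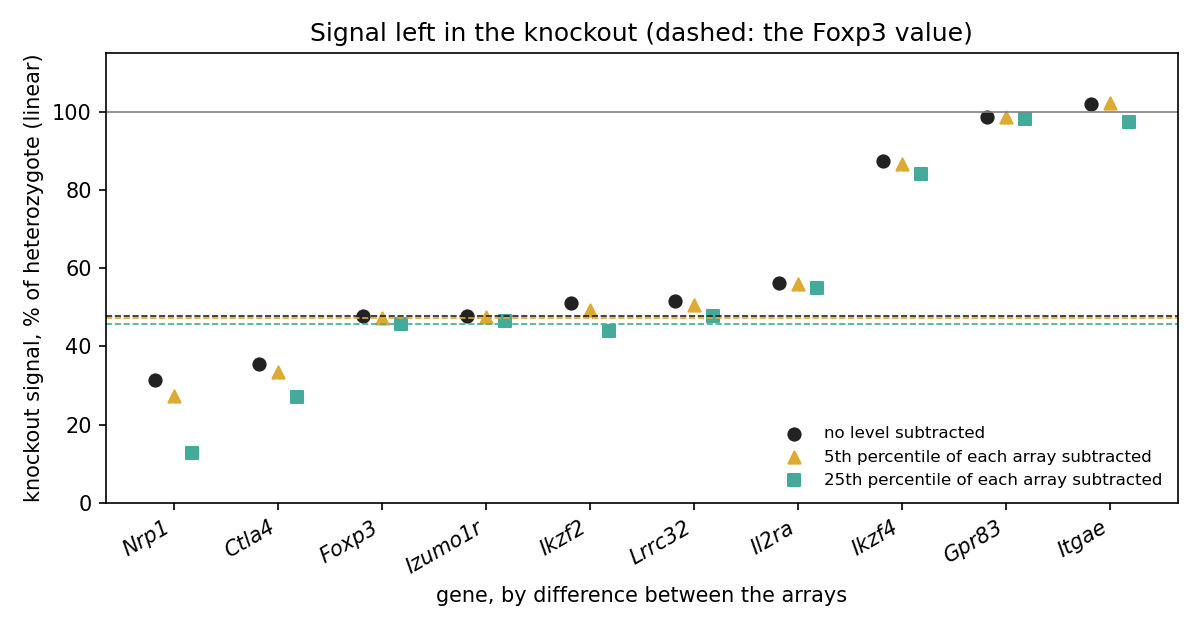
Linear knockout signal as a percentage of the heterozygous signal (vertical axis) for each gene, with no level subtracted (circles) or with the 5th (triangles) or 25th (squares) percentile of each array subtracted; dashed lines mark the Foxp3 value of the same colour, which a single change in cell share would give for every gene whose signal all came from those cells. Izumo1r, Ikzf2 and Lrrc32 lie near the lines, Il2ra above them at 55.0% to 56.3%, Nrp1 and Ctla4 below them, and Ikzf4, Gpr83 and Itgae near 84% or above.

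Other genes of regulatory T cells, outside the list, had a smaller median drop than the members. Of 27 measured, 21 were lower and 6 higher, where 39.3% of all genes were below 0. Their median difference was -0.26, and with the deposited values 0 of the 27 reached the difference of Foxp3. That count depends on the scaling. Foxp3 was at -0.9972 with the loess trend removed and at -0.9948 after quantile normalization. The lowest values across the scalings were below both for Rgs1, at -1.0204, and for Socs2, at -1.0054. Among the 15 with a mean past the filter 13 had negative differences, as 59.1% of all such genes did. Lower by 1.5-fold, as 3.17% of such genes were, lay 3 of the 13. These were Rgs1 at -0.96, Socs2 at -0.88 and Icos at -0.66. The drop of Rgs1 was larger than that of the member Il2ra, at -0.83. Socs2 passed the filter through the heterozygous array alone, and it was at -0.29 with its clusters averaged. Icos was not past 1.5-fold after loess or quantile scaling. Tnfrsf18, the receptor GITR, was at 11.42 (heterozygote) and 11.16 (knockout), a difference of -0.26. Tnfrsf4, the receptor OX40, was at -0.34 and Nt5e, the adenosine-forming enzyme CD73, at -0.41. Tigit, an inhibitory receptor, was at -0.23. Ecm1 was higher by 0.24 and Lag3 was at 0.01. The percentage of heterozygous signal kept ran from 51.3% to 138% over the 27 genes, with a median of 83.7%, beside the 47.8% of Foxp3. Many of these genes are also expressed by other CD4 T cells, and the part of each that comes from regulatory T cells was not measured.

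Genes of effector regulatory T cells, the activated form with high CD44, had a median difference of -0.29. Of 15 measured 11 were lower, where 39.3% of all genes were. The filter left 7, of which 6 were lower, where 59.1% of genes above the filter were. Icos alone was past 1.5-fold, as 3.17% of such genes were, but not after loess or quantile scaling. Maf, a factor of interleukin-10 production, was at -0.54, Irf4 at -0.45, the chemokine receptor Cxcr3 at -0.44 and Batf at 0.03. Genes of resting regulatory T cells, all of which naive T cells also express, had a median of -0.03. Among these S1pr1, the receptor for lymph node exit, was at -0.19, Ccr7 at -0.11 and Klf2 at 0.11. None of the 6 differed by 1.5-fold, where 3.17% of genes above the filter were lower by that much and 0.449% higher.

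Factors that induce Foxp3 or act with it were close to level. Of 29 measured, all above the filter, 17 were lower and 12 higher, and none differed by 1.5-fold, where 3.17% of genes above the filter were lower by that much and 0.449% higher. The median of -0.02 changed sign, to 0.03, after centring, which left 12 lower and 17 higher. Runx1 and Cbfb, which form a complex that binds Foxp3, were at 0.03 and 0.02. Foxo1, which drives Foxp3 in the thymus, was at -0.19, Rel, an NF-kB subunit needed for it, at -0.28, and Smad3 at -0.14. The lowest were the acetyltransferase Kat5 at -0.39 and Smad2 at -0.32, and the highest was Nr4a3 at 0.34, then Stub1, a ubiquitin ligase that acts on Foxp3 protein, at 0.19.

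Genes that conventional CD4 T cells express more than regulatory T cells had a median of -0.12. Of 13 measured 9 were lower, where 39.3% of all genes were. Of the 10 above the filter 7 were lower, where 59.1% of such genes were. By 1.5-fold 1 was lower, where 3.17% of such genes were. This was Cd40lg, the ligand through which helper T cells activate B cells. Cd40lg was at 11.13 (heterozygote) and 10.13 (knockout), 2-fold lower beside the 2.09-fold of Foxp3. The cause of its drop was not tested. Il7r, the interleukin-7 receptor, was at -0.22, Dapl1 at -0.52, Igfbp4 at 0.14 and Lef1 at 0.06.

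**Figure D4:**
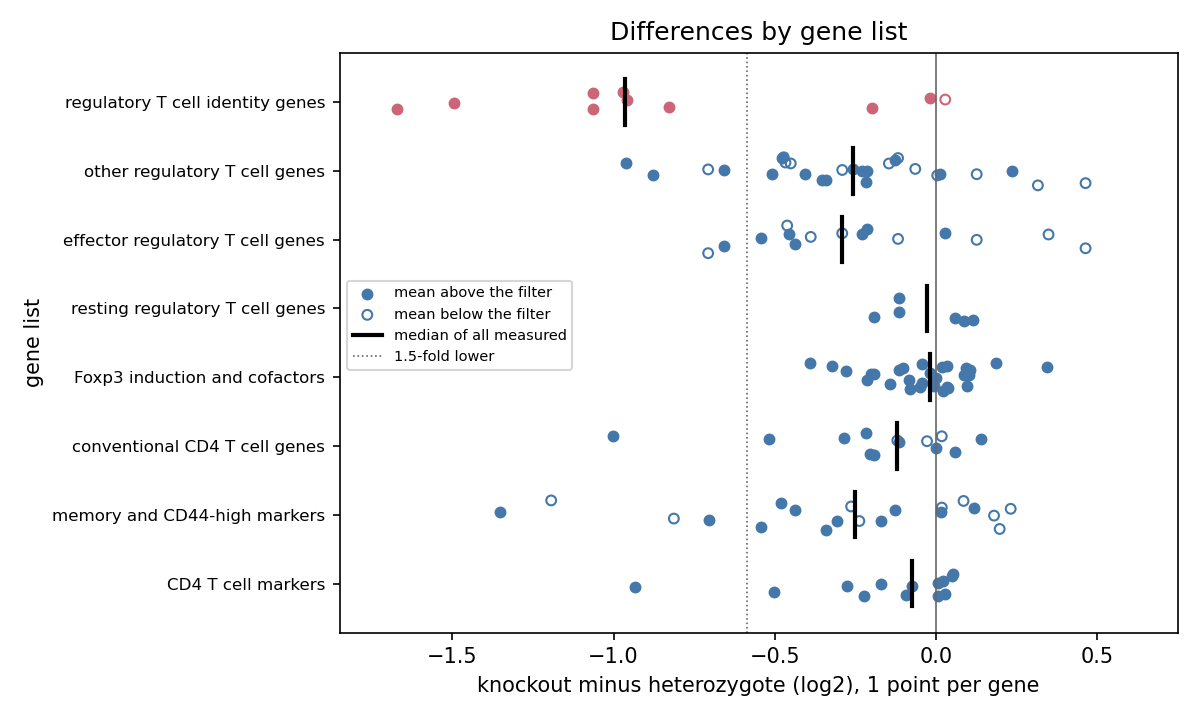
Knockout minus heterozygote difference in log2 signal (horizontal axis) of each measured gene in 8 lists (vertical axis; the lists share some genes), with filled points for genes above the filter, open points for genes below it and black bars for medians; vertical scatter within a list carries no value. The 10 regulatory T cell identity genes have a median of -0.96, the other regulatory T cell genes -0.26, and the Foxp3 cofactors -0.02.

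By the Euclidean distance of both log2 values to those of Foxp3, measured over 2 arrays only, the nearest genes above the filter were Sntb1, Cd40lg, Snora44, Tlr1 and Pde2a, at distances from 0.10 to 0.21. They were lower by between 1.69-fold for Pde2a and 2-fold for Cd40lg. With 2 arrays such likeness says only that both signals were near those of Foxp3, and the signals of different probes are not on a common scale.

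Of 20 measured markers of memory cells 13 were lower, where 39.3% of all genes were. The filter left 11 of them, with 9 lower, where 59.1% of genes above the filter were, and 2, Cd44 and Crip1, past 1.5-fold, where 3.17% of such genes were. Cd44, the sorting marker, was at 9.56 (heterozygote) and 8.21 (knockout), which left 39.2% of its signal, less than Foxp3 kept. Crip1 was at -0.70, Maf was at -0.54 as given above, and Id2 was at 0.12. The summed linear signal of the 20 markers, those below the filter included, was 19796 (heterozygote) and 15385 (knockout). Some regulatory T cells carry high CD44, and the part of the CD44 enrichment in the drop of their genes was not tested.

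Among markers of CD4 T cells as a whole, all above the filter, 7 of 13 were lower, where 59.1% of genes above the filter were. The others were higher, and the median of the 13 of -0.07 became 0.02 after quantile normalization. Thy1, a surface glycoprotein of all T cells, was at 13.14 and 12.21. It was the only one of the 13 lower by 1.5-fold, where 3.17% of genes above the filter were. Cd3d was at -0.50. The summed linear signal of the 13 markers in the knockout was 0.919 times that in the heterozygote.

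Markers of other cells that express some of the regulatory T cell genes were low or mixed. For the counts below, 39.3% of all genes were lower. Nrp1 is also made by endothelial cells and Itgae by dendritic cells and CD8 T cells. Of 6 endothelial markers 2 were lower and 4 higher; Pecam1, which naive T cells also express, was the only one above the filter, at -0.55, and the defining markers Cdh5, Kdr and Tek lay between 5.99 and 7.50 on both arrays. Of 14 myeloid and dendritic cell markers 4 were lower and 10 higher, with a summed linear signal of 1607 and 1627. Of 9 B cell markers 2 were lower, with sums of 1074 and 1186. Cd8a was at 7.63 and 7.65, and Cd8b1 at 10.50 and 10.24.

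Of 9 natural killer cell markers 8 were lower, where 39.3% of all genes were. After centring 6 of the 9 were lower. The 4 above the filter, Klrd1 at -1.09, Eomes at -0.85, Prf1 at -0.50 and Nkg7 at -0.41, are also made by activated T cells. The defining markers Klrb1c and Ncr1 lay between 4.49 and 5.79 on both arrays. The sums were 3094 and 1993. Of 5 plasma cell markers 3 were lower. Igha was at -2.01 (-1.46 with its clusters averaged), Tnfrsf17 at -0.01 and Sdc1 at 0.30, while Jchain was at 5.88 and 5.90. Xbp1, with the strongest signal of the 5, was at 11.21 and 10.93. The sums of the 5 were 3269 and 2457. Of 6 erythroid and platelet markers none was lower. Counts of lower markers in these low lists depend on the scaling: with the loess trend removed they were 8 of 14 for myeloid, 4 of 9 for B cell, 4 of 6 for endothelial and 2 of 6 for erythroid and platelet markers. The part of natural killer and plasma cell transcripts in the drop of the regulatory T cell genes was not tested.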

How the data were processed

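Total RNA was labelled by a whole transcript assay and hybridised to Affymetrix arrays, with 1 array for each of 2 samples. The authors deposited log2 signals per gene, made with RMA in Affymetrix Expression Console, version 1.1, keeping the core gene set, per the series design text; no source used here gives the genome build. RMA corrects background and fits all arrays together, and it tends to compress the differences of weak signals. The design text names an exon array, and the probe table used for names is that of a gene-level array. Of 35556 rows, 21789 had 1 symbol, 1621 several and 12146 none; genes with several clusters (999) took the one of highest mean.

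No further normalization was applied. Differences are knockout minus heterozygote on the log2 scale, counted at 1.5-fold and 2-fold, with no test. All 10 regulatory T cell genes matched the RefSeq table (GRCm38.p6) by gene ID, and 6 had a promoter window. Named are the list, Taf7, up to 3 genes at each end of every other gene list with further partners, and the 5 genes nearest to Foxp3. The members and lists were chosen with earlier results of these data known. The calculations were tested on simulated data. Alternatives were centring, removal of a loess trend (span 0.3), quantile normalization, averaged clusters, other filters, means and subtracted levels. The tools were statsmodels 0.14.6 for loess, matplotlib 3.10.9 for figures, and numpy 2.4.6 with pandas 2.3.3 under Python 3.11.15.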

Additional observations from a re-analysis of the deposited data

How the results depend on the processing

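No paired analysis was possible because the groups hold a single array each, and for the same reason none could be left out. Centring, removal of the loess trend and quantile normalization left 7 members lower by 1.5-fold (averaging clusters cannot move a member, as each has 1); 2-fold was reached by 3 in place of 4, all but Foxp3, after loess or quantile scaling. Under a 75th percentile filter, passed by 5 members, 4 were lower by 1.5-fold and 2 by 2-fold, because fewer genes enter. The median difference of the members ran from -0.96 to -0.82, the last as a mean. Across the scalings the difference of Foxp3 lay between -1.06 and -0.99, that of Nrp1 between -1.79 and -1.62, that of Ctla4 between -1.50 and -1.43 and that of Ikzf4 between -0.20 and -0.11. Gpr83 and Itgae changed sign with the scaling. Weak signal limits Itgae and the knockout value of Nrp1.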
